A study of Mus with 8 samples.

Results

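The genes described here encode the 3 melanin-making enzymes and 3 structural membrane proteins of the melanosome, the pigment organelle. They are Tyr (tyrosinase), Tyrp1 (tyrosinase-related protein), Dct (dopachrome tautomerase), Pmel (premelanosome protein), Mlana (melan-A) and Gpnmb (a transmembrane glycoprotein related to PMEL). The members were taken by gene symbol from the deposited annotation. Each of the 6 symbols stood alone on 1 transcript cluster, the unit in which the array summarises a gene, out of 22206 transcript clusters in all. RNA came from B16F10 cells, a pigment-making mouse melanoma line. The cells were kept for 48 h in medium alone (0 µM, 4 arrays) or in medium with 2 µM Butyroside D (4 arrays), each array being a Mouse Clariom S. Both groups share the cell line, the culture medium and a seeding step before treatment. One note on the control samples mentions a lower dose of the compound; since the title and the source of each name untreated medium, they are taken here as medium controls. A tumour line in culture holds no keratinocytes to receive pigment, and the readout is RNA, not melanin or protein.

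Melanin is made inside melanosomes. Tyrosinase, a copper enzyme, oxidises tyrosine and starts the pathway. Dopachrome tautomerase turns dopachrome into a carboxylated indole, which mouse TYRP1 oxidises further, and TYRP1 is also known to stabilise tyrosinase. PMEL is cut by proteases into fragments that assemble as amyloid fibrils, the scaffold on which pigment is laid down. MLANA is known from human cells to bind PMEL and to help its maturation. Most of these genes are known targets of MITF, the master transcription factor of melanocytes.

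Across the whole data set, the median log2 signal of the transcript clusters lay between 5.30 and 5.44 on the 8 arrays. The arrays came in 4 close pairs, namely arrays 1 and 2 and arrays 3 and 4 of each group. Partners correlated at 0.997 to 0.998 across transcript clusters, other pairs of arrays at 0.986 to 0.993. Each mean with n = 4 therefore rests on 2 close pairs. The pairs did not stand equally far apart. Treated arrays 3 and 4 correlated at 0.993 with every control array, slightly above the 0.992 between the control pairs. Treated arrays 1 and 2 correlated at 0.986 to 0.988 with the controls and at 0.986 with treated arrays 3 and 4. Whether the arrays stem from independent cultures is not stated in the labels, and the p-values cover only array-to-array spread, which may be technical. The label of a melanocytic line was checked against marker genes. The melanocytic markers include Tyr, Tyrp1, Dct, Pmel and Mlana, which are themselves among the genes described here. Only Sox10 and Mitf are other genes. All 7 melanocytic markers were above 5.17, the background level (on each array the median of its antigenomic probe sets was taken, and the largest of these is used), with control means from 13.15 to 19.02. Of the 24 measured markers of fibroblasts, keratinocytes, leukocytes with macrophages, and endothelium, 1 had both group means above that level. It was Col1a1, a collagen chain, at 5.57 in controls and 5.30 in treated arrays. The summed signal of the fibroblast markers ranged from 6.93 to 7.09 in controls and from 6.48 to 7.21 in treated arrays on the log2 scale. For keratinocyte markers the sums were 6.43 to 6.92 and 6.67 to 6.97, and for leukocyte and macrophage markers 7.22 to 7.50 and 6.996 to 7.53. The endothelial sums did not overlap, with 6.00 to 6.27 in controls and 5.60 to 5.97 in treated arrays, and all 5 endothelial markers were below the background level in both group means. Among them Pecam1, a junction protein, had means of 4.87 and 4.02, and no marker of these lists was called (limma). Their part in the results was not tested.

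None of the 6 genes passed the threshold between cells with Butyroside D and cells in medium (limma, adjusted p between 0.417 and 0.981, against a threshold of 0.05). Their unadjusted p-values were all above 0.05 as well. Over all transcript clusters the same fit called 26, or 0.117%. All 6 differences had a positive sign, from 0.01 for Tyrp1 to 0.30 for Mlana on the log2 scale, with a median of 0.17 beside a median of 0.011 over all transcript clusters, of which 51.5% were positive. These signs are not firm: Tyrp1 turned to -0.067 or -0.064 without treated array 3 or 4, Dct to -0.020 without treated array 3, and Tyr was at -0.16 in the authors' deposited table. In every one of the 6 genes the treated and control arrays overlapped, while 12.9% of all transcript clusters had no overlap. All 6 genes were above background in both groups, as were 11286 of the 22206 transcript clusters, so shares over all include many dim ones. Each 95% confidence interval of the 6 genes included 0, and together these ran from -0.32 to 0.74, that is from 0.803 to 1.67 times the control level. That fit treats all 8 arrays as independent, close partners included. On means of close pairs the intervals were wider, from -0.64 (Tyrp1) to 1.02 (Mlana) on the log2 scale, and changes within these wider bounds could not be told from none.

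**Figure D1:**
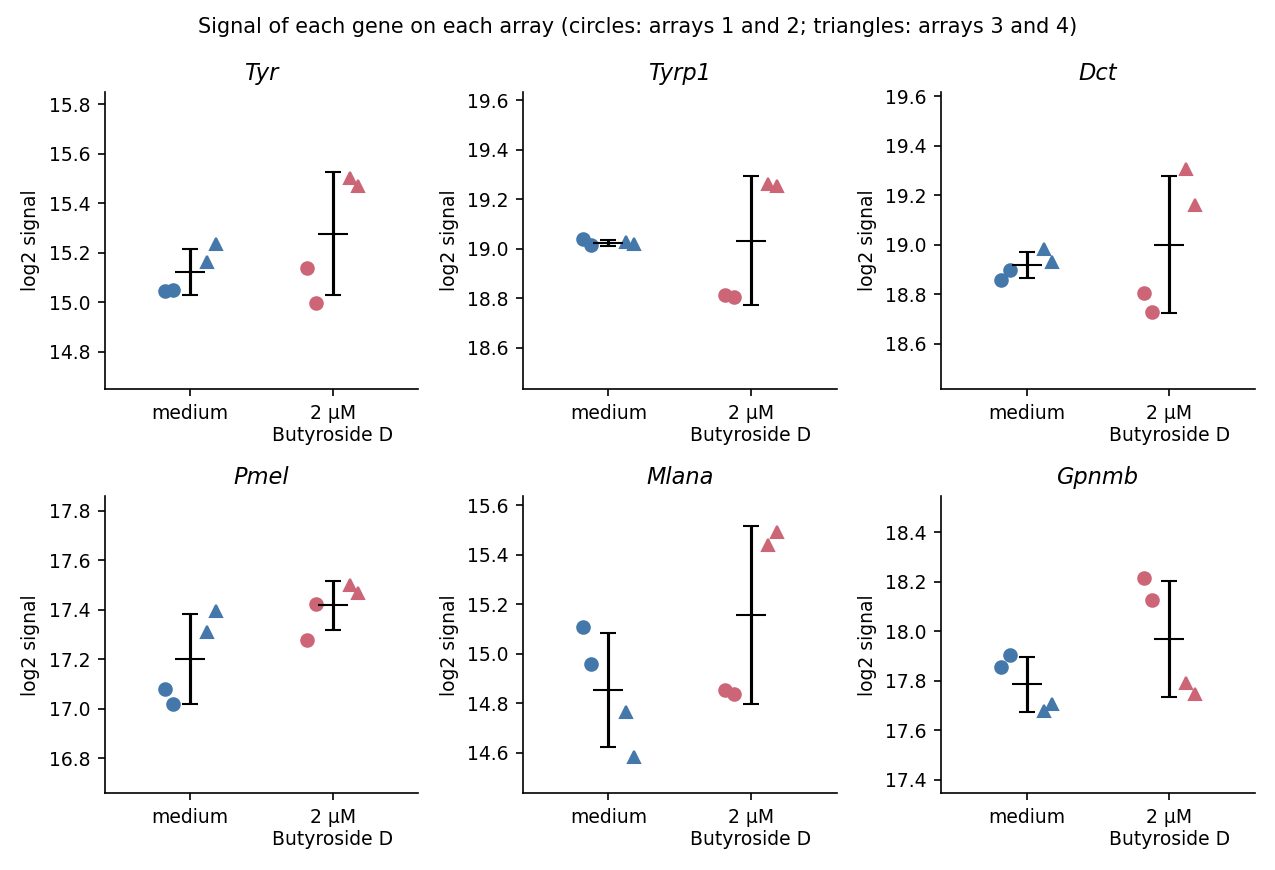
The log2 signal of the 6 genes on each array is plotted for medium and for 2 µM Butyroside D, with circles for arrays 1 and 2, triangles for arrays 3 and 4, and bars for the mean and SD of 4 arrays; every panel spans the same height. Treated and control points overlap in all 6 panels, and the Tyrp1 controls sit within 19.01 to 19.04 while its treated arrays lie on both sides of them.

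Tyr, whose product catalyses the first and rate-limiting step of pigment synthesis, read 15.05, 15.05, 15.16 and 15.23 in control arrays 1 to 4. Treated arrays 1 to 4 read 15.14, 15.00, 15.50 and 15.47 for Tyr. Treated arrays 3 and 4 were above all controls, treated array 1 lay inside the control range and treated array 2 just below it. The means were 15.12 ± 0.092 for medium and 15.28 ± 0.25 for Butyroside D (SD, n = 4 each). The log2 difference was 0.15 ± 0.15 (SE), which is 1.11-fold with an interval of 0.886 to 1.40 (limma, adjusted p = 0.609).

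Tyrp1, whose loss gives the brown coat in mice, varied least among the control arrays, at 19.04, 19.01, 19.03 and 19.02. Its treated values were 18.81, 18.80, 19.26 and 19.25. Treated arrays 1 and 2 were thus below all controls and treated arrays 3 and 4 above all of them. Their deviations nearly cancelled, so the means were 19.02 ± 0.011 and 19.03 ± 0.26 (SD, n = 4 each). The log2 difference of Tyrp1 was 0.01 ± 0.15 (SE), or 1.01-fold with an interval of 0.803 to 1.26 (limma, adjusted p = 0.981).

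Dct, the dopachrome tautomerase, followed the same order. Control arrays 1 to 4 read 18.86, 18.90, 18.98 and 18.93 for Dct, and treated arrays 18.81, 18.73, 19.31 and 19.16. Again treated arrays 1 and 2 lay below the control range and treated arrays 3 and 4 above it. The Dct means were 18.92 ± 0.054 and 19.00 ± 0.28 (SD, n = 4 each), a log2 difference of 0.08 ± 0.15 (SE) with an interval of 0.837 to 1.34 in fold (limma, adjusted p = 0.806). The highest signal of any transcript cluster on any array was 19.74. The brightest arrays of Tyrp1 and Dct came within 0.48 and 0.43 of it, a region in which a saturating array can compress a difference. Whether saturation acted on these probes was not tested.

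Pmel, the fibril protein of the melanosome matrix, read 17.08, 17.02, 17.31 and 17.40 in controls. With Butyroside D, Pmel read 17.28, 17.42, 17.50 and 17.47. Here 3 treated arrays were above all controls and treated array 1 was below control arrays 3 and 4. Means were 17.20 ± 0.18 and 17.42 ± 0.099 (SD, n = 4 each). The log2 difference was 0.22 ± 0.13 (SE), a fold of 1.16 with an interval of 0.946 to 1.43, and Pmel had the lowest adjusted p of the 6 genes (limma, 0.417).

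Mlana, a small membrane protein of early melanosomes, spread most widely. Control arrays read 15.11, 14.96, 14.76 and 14.58 for Mlana, and treated arrays 14.86, 14.84, 15.44 and 15.49. Treated arrays 3 and 4 lay above every control, and treated arrays 1 and 2 lay inside the control range. The 2 control pairs also stood apart from each other, with arrays 3 and 4 lower by a log2 difference of -0.36 than arrays 1 and 2. Group means were 14.85 ± 0.23 and 15.16 ± 0.36 (SD, n = 4 each). Mlana had the widest interval of the 6, with a log2 difference of 0.30 ± 0.20 (SE) and 0.912 to 1.67 in fold (limma, adjusted p = 0.440).

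Gpnmb, which in mice carries the pigment dispersion mutation of the DBA/2J strain, had the opposite order of treated arrays. Its control arrays read 17.86, 17.90, 17.68 and 17.71. Treated arrays 1 and 2 read 18.22 and 18.13 for Gpnmb, above all controls, while treated arrays 3 and 4 read 17.79 and 17.75, inside the control range. Means of Gpnmb were 17.79 ± 0.11 and 17.97 ± 0.23 (SD, n = 4 each). The log2 difference was 0.18 ± 0.15 (SE), or 1.14-fold with an interval of 0.907 to 1.42 (limma, adjusted p = 0.531).

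An exact two-sided permutation test over the 8 arrays, whose smallest possible p is 0.0286, gave values from 0.114 for Pmel to 0.686 for Tyrp1. The replicate SD pooled over both groups lay between percentile 14.2 (Pmel) and percentile 63.2 (Mlana) of all transcript clusters, so the 6 genes were no more variable than many others on the array.

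For all of the 6 genes but Pmel, the treated pairs lay further apart than the group means. Relative to the mean of all controls, treated arrays 1 and 2 averaged -0.05 for Tyr, -0.22 for Tyrp1, -0.15 for Dct and -0.01 for Mlana on the log2 scale. The same 4 genes averaged 0.36, 0.23, 0.31 and 0.61 in treated arrays 3 and 4. Pmel was positive in both treated pairs, at 0.15 and 0.28. Gpnmb went the other way, with 0.38 in the pair of treated arrays 1 and 2 and -0.01 in the other pair. The gap between treated pairs was thus 0.42, 0.45, 0.47 and 0.62 for Tyr, Tyrp1, Dct and Mlana, 0.13 for Pmel and -0.40 for Gpnmb. Pmel's control pairs were further apart than that, at 0.30. Over all transcript clusters the median absolute gap between treated pairs was 0.35, and between control pairs 0.26. The treated pairs lay on opposite sides of the control mean for all of the 6 genes but Pmel, and in 45.8% of all transcript clusters. Separated treated pairs were thus common on these arrays. For Mlana and Gpnmb the side rests on little. Their nearer treated pair was off the control mean by only -0.006 and -0.015, less than their largest gaps within a close pair, 0.18 and 0.089. For all of the 6 genes but Pmel the gap was larger in size than the median of 0.35, for Gpnmb and Tyr only slightly. Many transcript clusters exceed a median by definition, so this marks no trait of the 6 genes. The median of the antigenomic background probe sets also differed between the treated pairs. It was 5.17 and 5.07 in treated arrays 1 and 2 and 4.70 and 4.69 in treated arrays 3 and 4. In the control arrays it was 4.83 to 4.95. What separates the pairs is not given in the labels, and neither its part nor that of the background in these values was tested.

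**Figure D2:**
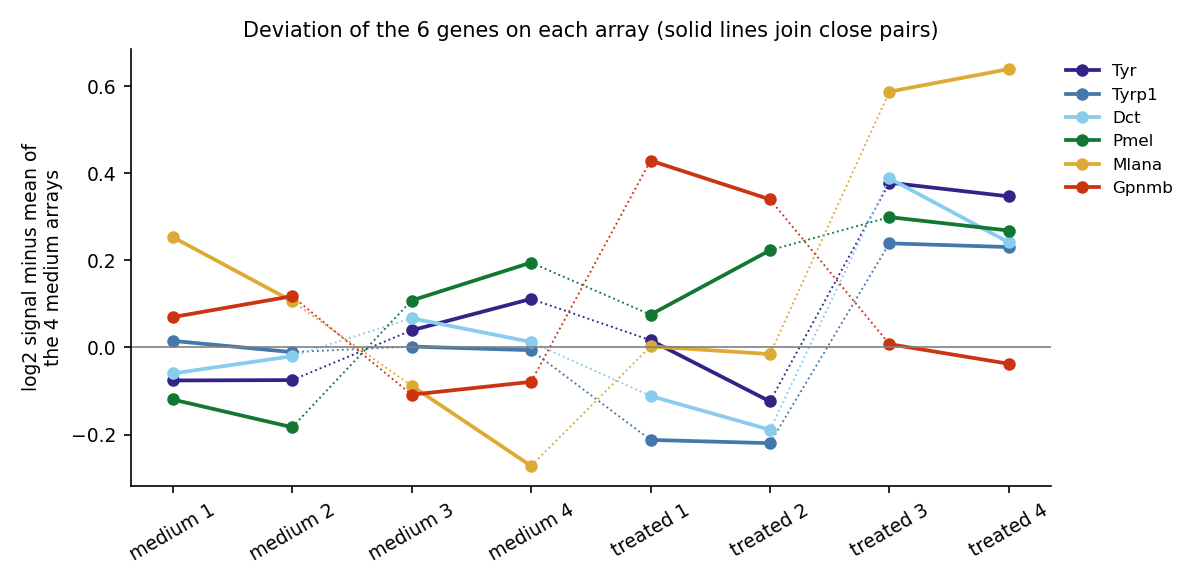
The log2 signal of each gene minus the mean of its 4 medium arrays is plotted for the 8 arrays, with solid lines joining close pairs and dotted lines between them. In treated arrays 3 and 4, Tyr, Tyrp1, Dct, Pmel and Mlana lie above the control mean and Gpnmb close to it, while in treated arrays 1 and 2 Gpnmb averages 0.38 above it and Tyrp1 averages -0.22.

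The 3 enzymes varied together over the 8 arrays. Pearson's correlation of their log2 values was 0.93 for Tyr with Dct, 0.93 for Tyrp1 with Dct and 0.83 for Tyr with Tyrp1. Mlana correlated with them at 0.67 to 0.75. Pmel was less alike, from 0.30 with Tyrp1 to 0.68 with Tyr. Gpnmb had negative values with all 5 others, from -0.75 with Tyrp1 to -0.15 with Pmel. With each group's mean taken out, Gpnmb was at -0.91 with Tyr, -0.89 with Tyrp1 and -0.73 with Pmel, the 3 enzymes were at 0.91 to 0.95 with each other, and Pmel with Mlana was at -0.12 in place of 0.25. These are descriptions of 8 arrays that share 4 close pairs, which gives far fewer than 8 independent points, and no p-value is attached.

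Genes whose pattern over the 8 arrays was most like each member were taken from 10227 named transcript clusters above background. Lap3, a leucine aminopeptidase (0.99), and Nme1, a nucleoside diphosphate kinase (0.98), were closest to Tyr by Pearson's correlation. Mrps15, a mitochondrial ribosomal protein, and Cnih4, a cargo receptor of the secretory pathway, were closest to Tyrp1 (both 0.99). For Dct they were Oat, ornithine aminotransferase (0.99), and Pomp, a proteasome assembly factor (0.98), and for Mlana Alg14, of protein glycosylation (0.99), and Lig4, a DNA ligase (0.98). Hist2h3b, a histone gene, and Arel1, a ubiquitin ligase, were closest to Gpnmb (both 0.99). Pmel was most like Arfip2 and Cd63 (both 0.98). CD63 is a tetraspanin that takes part in sorting PMEL within melanosome precursors. Each is the best of all those candidates over 4 close pairs, and was given no test. None of these 12 genes passed the threshold between groups, with limma adjusted p from 0.181 to 0.989.

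Among the other genes of the pathway, 63 were listed and all 63 were measured, 58 of them above background in both groups. Limma called 1 of the 63 higher and 1 lower in the treated arrays, where 0.0766% and 0.0405% of all transcript clusters were called in these directions. The sign was positive in 44 of the 63, or 69.8%, against 51.5% of all transcript clusters, and the median log2 difference was 0.14. Only 11286 of the 22206 transcript clusters were above background in both groups, so the shares over all include many dim ones. With dim transcript clusters left out, the medians were 0.15 for the pathway genes and 0.025 for all that remained. In the authors' deposited table the median over the same 63 genes was 0.03, where that of all transcript clusters was -0.03. In 11 of the 63 all treated arrays lay above all controls and in 2 below, where the shares over all transcript clusters were 6.98% and 5.93%.

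The gene that rose was Psenen, a subunit of gamma-secretase, the protease that releases the intracellular end of PMEL after its ectodomain is shed. Control arrays read 9.92, 9.96, 9.90 and 9.86 for Psenen, and treated arrays 10.96, 10.76, 10.78 and 10.84. The groups were well apart and neither treated pair stood out. The log2 difference was 0.93 ± 0.11 (SE, n = 4 per group; limma, adjusted p = 0.0265). The call of Psenen rested on the full set of arrays. Leaving out any 1 of the 8 gave an adjusted p of 0.0731 to 0.148 at differences of 0.88 to 0.95. With the close pair as a random block the adjusted p was 0.999 at the same difference. Over all transcript clusters, limma called 0 to 5 with 1 array left out and 0 with the random block, so this loss was not particular to Psenen. Of the other 10 genes of PMEL processing none was called. Cd63 differed by 0.66 ± 0.22 (limma, adjusted p = 0.181), with all treated arrays above all controls.

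The gene that fell was Usf1, which encodes a helix-loop-helix factor known to bind E-boxes in pigment gene promoters. It read 7.99, 8.09, 8.18 and 8.13 in controls and 7.26, 7.31, 7.18 and 7.12 in treated arrays. Usf1 fell by 0.88 ± 0.12 on the log2 scale (SE, n = 4 per group; limma, adjusted p = 0.0313). Without any 1 of the arrays its adjusted p was 0.0795 to 0.148 at differences of -0.91 to -0.85. With the close pair as a random block the adjusted p was 0.999 at the same difference of -0.88. As for Psenen, this loss was not particular to Usf1, since those fits called 0 to 5 and 0 of all transcript clusters. Mitf itself differed by 0.19 ± 0.19 (limma, adjusted p = 0.616), with control pairs at 15.91 and 15.90 against 16.61 and 16.57. Mc1r, the melanocortin receptor, differed by 0.29 ± 0.16 (limma, adjusted p = 0.378). In this list of 10 regulators and receptors, 6 differences were positive.

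All 8 ion carriers and channels of the melanosome had positive differences, with a median of 0.12 and none called. The differences ran from 0.005 to 0.58, the lowest with an SE of 0.24, so the shared sign says little about size. The carriers Slc45a2 and Slc24a5 had the smallest p in the list, with log2 differences of 0.58 ± 0.13 and 0.55 ± 0.12 (SE, n = 4 per group; limma, adjusted p of 0.0877 and 0.0778). Their treated arrays lay above all controls. In the authors' deposited table, however, Slc45a2 was at -0.20 and Slc24a5 at 0.08 on the log2 scale. The treated averages there, 15.60 and 15.85, lay below the lowest treated arrays of these genes, 16.24 and 16.26. For Slc24a5 the treated arrays read 16.28, 16.35, 16.31 and 16.26, so the treated pairs that differed in the enzymes were close here.

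Copper reaches tyrosinase through the chaperone ATOX1 and the pump ATP7A. Atox1 differed by 0.78 ± 0.15 and Atp7a by -0.37 ± 0.15 (SE, n = 4 per group; limma, adjusted p of 0.0729 and 0.230). Mif encodes a cytokine that can act on the D form of dopachrome in vitro, and differed by 1.23 ± 0.28 (limma, adjusted p = 0.0822), while Ddt, its relative, differed by 0.11 ± 0.25. The log2 differences in the authors' deposited table were 0.50 for Mif, 0.71 for Ddt, 0.73 for Atox1 and -0.24 for Atp7a. In melanosome biogenesis and transport, 14 of 24 differences were positive and none was called. Hps3, a subunit of the BLOC-2 sorting complex, differed by 0.72 ± 0.21 and Kif13a, a kinesin that carries melanosome cargo, by -0.70 ± 0.18 (limma, adjusted p of 0.139 and 0.115). The authors' deposited table gave Hps3 0.21 and Kif13a -0.01. None of the 5 genes of tyrosinase folding was called. Calr and Pdia3, of the calnexin and calreticulin cycle, differed by 0.45 ± 0.31 and 0.33 ± 0.17 (limma, adjusted p of 0.466 and 0.335).

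**Figure D3:**
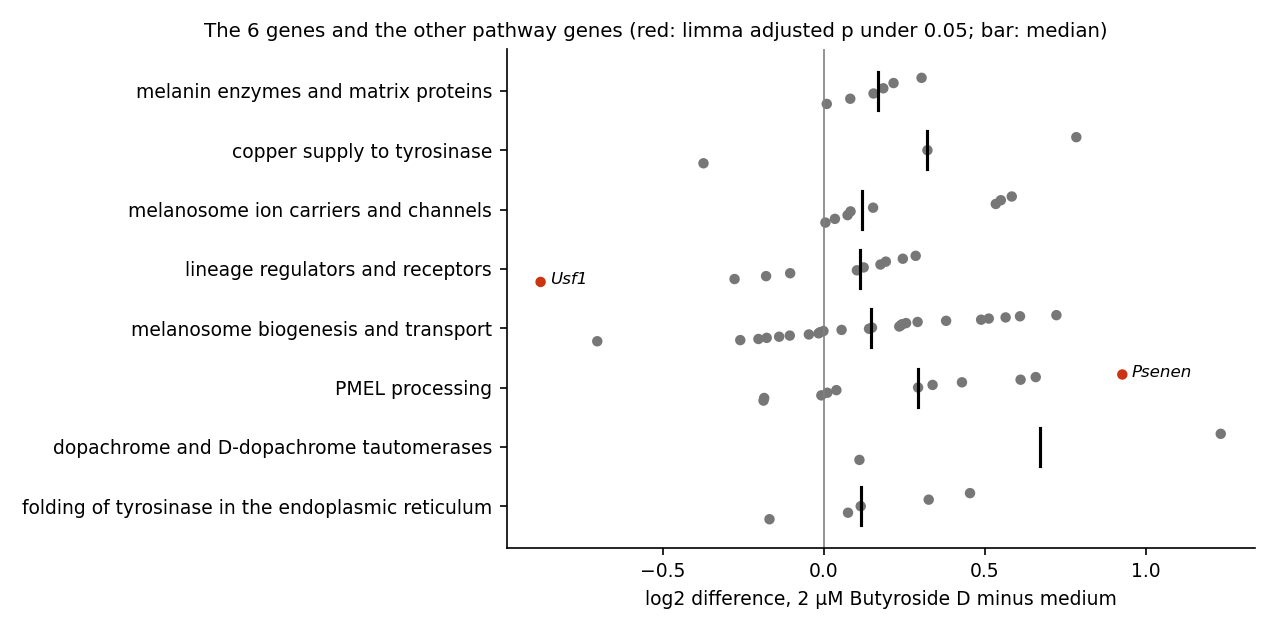
The log2 difference between 2 µM Butyroside D and medium is plotted for each of the 6 genes and the 63 other pathway genes, in rows by list, with black bars for medians and red points for limma adjusted p under 0.05. The 6 genes lie between 0.01 and 0.30, and the red points are Psenen at 0.93 and Usf1 at -0.88.

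The authors' deposited table gives group averages and no values per array, and shares the control arrays with the comparison above. Over all transcript clusters a Tukey biweight mean of the control arrays came within 0.01 of its control average for 22197 of 22206, and such a mean of the treated arrays came within 0.01 of its treated average for 533, so the authors' deposited table is set out separately. In it, 1.56% of all transcript clusters had an FDR under 0.05, and none of the 6 genes did (FDR from 0.264 to 0.934 in the authors' deposited table). Mlana was highest there, with averages of 14.86 and 15.25 and a fold of 1.31 (p = 0.0356, FDR 0.264 in the authors' deposited table). Tyrp1 was 1.09-fold, Gpnmb 1.08-fold, and Dct and Pmel 1.03-fold higher in the authors' deposited table. Tyr had the opposite sign, with averages of 15.11 in controls and 14.95 in treated cells in the authors' deposited table, the second below every treated array. Pmel's treated average of 17.24 in the authors' deposited table was likewise below its lowest treated array, 17.28. Of the 63 other pathway genes, 5 had an FDR under 0.05 in the authors' deposited table, namely Psenen (0.69), Cd63 (0.76), Pdia3 (1.05) and Calr (1.25) with positive and Usf1 (-0.65) with negative log2 differences.

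**Figure D4:**
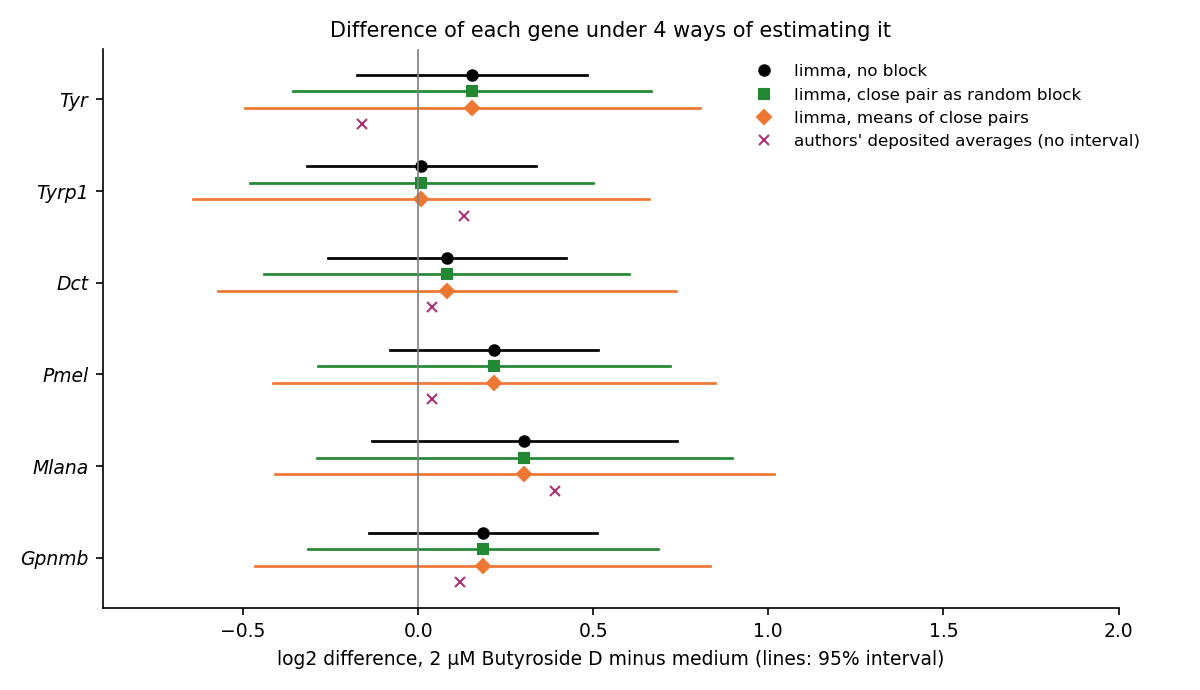
The log2 difference of each gene between 2 µM Butyroside D and medium is plotted with its 95% confidence interval from limma without a block, with the close pair as a random block and on means of close pairs, beside the difference of the averages in the authors' deposited table, which has no interval. Every interval includes 0, and for Tyr the value from the authors' deposited table, -0.16, has the opposite sign.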

How the data were processed

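RNA of 8 samples was measured on Mouse Clariom S arrays. RMA, Transcriptome Analysis Console and Affymetrix Expression Console are named, without version or role, per the submitters' processing notes. Values in the deposited array table are log2 signals, with a column for each array. The second deposited table holds log2 group averages, a signed linear fold change (a score, since values below 1 are written as negative inverses per the file headers), and a p-value and FDR from a test that the authors' headers do not name. No coordinates are printed, the genome build being not given in the sources used here. RefSeq's mouse gene table (GRCm38.p6) holds all 6 member symbols.

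From 28846 features, 6640 control probe sets were left out. Treated minus control was tested on all 22206 transcript clusters by limma 3.58.1 under R 4.3.3 (two-sided moderated test of lmFit and eBayes with 6 residual degrees of freedom, Benjamini-Hochberg over all, threshold 0.05), without a block, since the labels tie no replicate numbers to shared cultures. The 23 antigenomic probe sets gave the background level. Transcript clusters with several symbols (836) or none (3) were not named. The test was tried on simulated data with known changes. Alternatives were array centring, a replicate block, the close pair as a random block, means of close pairs, a filter on dim transcript clusters, a trended prior, and each array left out. The authors' averages were set beside these, though their treated averages mostly do not match the treated arrays.

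The members, gene lists, pairs of arrays and alternatives were chosen with earlier results of these data known, and Psenen, Usf1, Slc45a2 and Slc24a5, already singled out in those results, are no independent evidence. Named genes were the 6 members, from each pathway list the genes called and the 2 with the smallest p, and for each member the 2 most alike by Pearson's correlation over 8 arrays. Mitf was added after its values were seen. The number of arrays limits the precision.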

Additional observations from a re-analysis of the deposited data

How the results depend on the processing

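For the 6 genes, limma called none under any alternative run on the arrays, with adjusted p from 0.357 to 0.999. With arrays centred on their medians all 6 differences stayed positive, from 0.036 for Tyrp1 to 0.33 for Mlana. Either block, means of close pairs, the dim filter and the trended prior leave each difference of group means unchanged by design. Those settings therefore cannot test the sign. Leaving out 1 array gave Tyrp1 -0.067 to 0.086, Dct -0.020 to 0.17 and Tyr 0.080 to 0.25. It gave Pmel 0.16 to 0.28, Mlana 0.19 to 0.41 and Gpnmb 0.10 to 0.26. The negative values came without treated array 3 for Dct and Tyrp1 and without treated array 4 (-0.064) for Tyrp1. In the authors' deposited table the sign was turned for Tyr (-0.16), Slc45a2 (-0.20) and Mc1r (-0.61). The treated averages of these genes there, 14.95, 15.60 and 13.56, lay below their lowest treated arrays, 15.00, 16.24 and 14.34. Their control averages there, 15.11, 15.80 and 14.17, lay within the range of the control arrays. Values from that table are thus not a further fit to the same treated values, and why the treated averages differ was not tested. Ddt ran from -0.11 to 0.28 with 1 array left out. The number of transcript clusters called was 26, against 48 with arrays centred on their medians, 55 with dim transcript clusters left out (fewer were tested), 347 in the authors' deposited table, 0 with the replicate block, the close pair as a random block or means of close pairs, and 0 to 5 with 1 array left out. At an unadjusted p under 0.05 the close pair as a random block gave 890 and the fit without it 3977. Pathway genes called were 2, against 0 with the replicate block, either treatment of the close pairs, or any 1 array left out, and 5 in the authors' deposited table. Deviations from group means of samples with equal replicate numbers correlated at 0.070 to 0.084, all positive but under the 0.1 asked for here to treat the numbers as pairs. Of the control arrays, 3 of 4 correlated best with their own number. Since close partners are nearly alike, neither these matches nor the shared sign can tell whether equal numbers mark shared cultures.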
